A study of Bos taurus with 8 samples.

Results

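The genes ACOD1 (ENSBTAG00000008259), PTGS2 (ENSBTAG00000014127) and SOD2 (ENSBTAG00000006523) encode effector enzymes that blood phagocytes are known to make on contact with bacterial lipopolysaccharide (LPS). They were taken by name, and made up 3 of the 21861 genes listed in the single-cell RNA sequencing (scRNA-seq) data of cattle blood cells. The same identifiers were looked up in the single-cell chromatin accessibility (scATAC-seq) data. A gene named COX2 in the data is the mitochondrial cytochrome oxidase subunit and was not read as PTGS2. Blood of 4 female lactating Holstein cattle aged 2 years was pooled and divided into 4 parts. One part received no LPS, and the others received 2 µg/ml of it and stood for 2 h, 4 h or 8 h before peripheral blood mononuclear cells (PBMCs) were isolated. There was 1 library of each assay for each part. No incubation time is given for the no LPS part, so LPS and time outside the animal cannot be told apart, and with pooled animals and 1 library per treatment nothing below was checked in replicates.

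ACOD1 makes itaconate from cis-aconitate, an intermediate of the tricarboxylic acid (TCA) cycle. Itaconate inhibits succinate dehydrogenase and modifies stress-response proteins. PTGS2, also called cyclooxygenase 2, makes prostaglandin H2 from arachidonic acid, which synthases turn into prostaglandin E2 and other prostanoids that act through receptors on nearby cells. SOD2 is the manganese superoxide dismutase of mitochondria and turns superoxide into hydrogen peroxide. All of these genes are known targets of inflammatory signalling in macrophages, and SOD2 and PTGS2 are textbook targets of the transcription factor NF-kB.

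The 4 scRNA-seq libraries held between 30902952 and 63770426 unique molecular identifiers (UMIs, each read as 1 captured RNA molecule). Of 30756 barcodes, 30575 were kept as cells and fell into 23 clusters, made without ACOD1, PTGS2, SOD2 and the LPS-response lists. Pairs of scRNA-seq libraries had 8 to 24 barcode sequences in common. One cluster with VCAN and CD14 among its markers is called the CD14/CSF1R-positive cells, and held 1279, 553, 288 and 221 cells in the no LPS, 2 h, 4 h and 8 h libraries. Another cluster, with CSF3R, CXCR1 and CXCR2 as markers, is called the CSF3R-positive cells, had CD14, SIRPA and CD68 among its markers too, and held 155, 504, 336 and 114 cells. T-like, NK-like, B-like and WC1-positive clusters were joined as the lymphoid cells, which numbered 5942, 8265, 6580 and 2291. The CD14/CSF1R-positive share of the cells was 15.2% without LPS, then 5.33%, 3.63% and 5.77%. Their median depth was 13047, 17270, 19875.5 and 27429 UMIs per cell, against 1094, 1450.5, 1951 and 2003.5 in CSF3R-positive cells. Reads of other cell types moved with LPS time inside the CD14/CSF1R-positive cells. The summed level of the 13 T cell markers there was 591, 729, 850.1 and 940.1 UMIs per 1000000 UMIs (CPM), and the share of these cells with at least 2 UMIs of CD3 or B cell genes was 29.2%, 41.6%, 58.0% and 61.1%. That share was taken without thinning, so it also depends on depth. The cells counted in it were deeper than the rest, with medians of 18997 against 10113 UMIs without LPS and 34922 against 16938 at 8 h. Leaving them out below therefore also leaves out deep cells. The summed level of the 12 monocyte markers was 4942, 2915, 2780.1 and 2988 CPM. All levels of genes below are CPM over the summed UMIs of a class in a library, all intervals are 95% intervals for counting error only, and a gene is called past 2-fold from the ratio of (CPM + 1).

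ACOD1 was a gene of the CD14/CSF1R-positive cells in every library, and was highest there at 2 h. In these cells its level was 30.6, 92.8, 67.8 and 49.6 CPM in the order no LPS, 2 h, 4 h, 8 h. All 3 LPS libraries lay above the no LPS library, with the order 2 h, 4 h, 8 h, no LPS and no overlap of neighbouring counting intervals. The level at 2 h was 3.04 times that without LPS (interval 2.74 to 3.37). The 4 h level was 2.22 times the no LPS level (1.95 to 2.52), and the 8 h level 1.62 times (1.42 to 1.86). In the same cells 2.70%, 4.36% and 5.42% of the genes tested were at least 2-fold higher than without LPS at the 3 times, and 7.08%, 3.86% and 1.89% at least 2-fold lower. ACOD1 ranked 108th from the highest ratio of 10110 genes at 2 h and 329th of 10029 at 4 h.

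The median log2 ratio of all genes in the CD14/CSF1R-positive cells was -0.31, 0.07 and 0.21 in the order 2 h, 4 h, 8 h. Relative to it, ACOD1 stood at 1.88, 1.05 and 0.47 on the log2 scale. Without the cells that carried at least 2 UMIs of CD3 or B cell genes, the ACOD1 level was 34.1, 106, 97.4 and 72.5 CPM in the order no LPS, 2 h, 4 h, 8 h. Its ratio to no LPS was then 3.11, 2.86 and 2.13. With the study's upper limit of 3000 genes per cell, the ratios were 3.37, 3.38 and 2.63, so the value at 4 h was no longer below that at 2 h. This limit took away 25.9%, 31.1%, 50.3% and 68.8% of the CD14/CSF1R-positive cells in the same order. The part of these cells in the ACOD1 result was not tested.

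In CSF3R-positive cells ACOD1 was near the limit of what these libraries could count. It had 2, 28, 21 and 7 UMIs in the order no LPS, 2 h, 4 h, 8 h, which is 6.60, 19.4, 14.4 and 12.5 CPM. As a share of the level in CD14/CSF1R-positive cells it was at 21.6%, 20.9%, 21.2% and 25.2%. The ratio at 2 h was 2.94 with an interval from 0.742 to 25.5, and the one at 4 h was 2.18 (0.534 to 19.2), so a difference from no LPS was not detectable at this depth. In these cells 9.15%, 17.3% and 18.5% of the genes tested were at least 2-fold higher at the 3 times. In lymphoid cells ACOD1 had 1, 4, 2 and 5 UMIs in the order no LPS, 2 h, 4 h and 8 h. It had no UMI in any library in the WC1-positive cells, where 3 counts would be 0.683 to 1.75 CPM.

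Of ACOD1, PTGS2 and SOD2, PTGS2 had the largest ratio to no LPS at 2 h and at 4 h in both myeloid classes. In CD14/CSF1R-positive cells its level was 156, 1975, 676 and 296 CPM in the order no LPS, 2 h, 4 h, 8 h. The level at 2 h stood far above the other libraries, and each later library was lower than the one before it. The ratio to no LPS was 12.7 at 2 h, with an interval of 12.2 to 13.2. Later it was 4.34 (4.14 to 4.55) at 4 h, then 1.90 (1.80 to 2.01) at 8 h. From 2 h to 4 h the level changed by a factor of 0.342 (0.331 to 0.354), and from 4 h to 8 h by 0.438 (0.416 to 0.462). Between 2 h and 4 h 1.04% of the genes tested in these cells fell at least 2-fold, and between 4 h and 8 h 1.23%. By its ratio to no LPS, PTGS2 ranked 6th of 10110 genes at 2 h, 60th of 10029 at 4 h and 708th of 10148 at 8 h.

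PTGS2 was highest at 2 h, then 4 h, under all 13 alternative choices of cells, scaling and pseudocount, while its value at 8 h moved more than 1.5-fold with the choice of cells. Without cells that carried at least 2 UMIs of CD3 or B cell genes, PTGS2 stood at 184, 2421, 892 and 479 CPM. The ratio at 8 h was then 2.60, and with the upper limit of 3000 genes it was 3.14, against 1.90 with all cells of the class. The part of cells with lymphoid UMIs in this difference was not tested.

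In CSF3R-positive cells PTGS2 had 2, 436, 350 and 85 UMIs in the order no LPS, 2 h, 4 h, 8 h, which is 6.60, 302, 240.2 and 151 CPM. Every LPS library was above the no LPS library, and the level at 4 h was 0.794 times that at 2 h (0.688 to 0.917), an interval above that of the CD14/CSF1R-positive cells. From 4 h to 8 h the comparison of the classes depended on which cells were counted. The level at 8 h was 0.631 times that at 4 h (0.491 to 0.801) with all cells of the cluster, above the CD14/CSF1R-positive value. Without cells that carried at least 2 UMIs of CD3 or B cell genes it was 0.555 (0.397 to 0.762) against 0.537 (0.490 to 0.587), whose intervals overlap. Ratios to no LPS were 45.8 (12.6 to 379), 36.4 (10.0 to 302) and 22.9 (6.16 to 193), with wide intervals because the reference holds 2 UMIs. PTGS2 ranked 5th of 5138 genes, 8th of 5574 and 7th of 3895. The T cell markers summed to 339.97, 361, 280.009 and 210.3 CPM in these cells, and the monocyte markers to 1211, 683, 795 and 716 CPM. As a share of the level in CD14/CSF1R-positive cells, PTGS2 was at 4.24%, 15.3%, 35.5% and 51.1%, while the median of the monocyte markers was at 4.81%, 12.2%, 8.35% and 0.980%. When cells were instead chosen by at least 2 UMIs of CSF3R and fewer of CD14 and CSF1R, 38, 100, 91 and 22 cells remained, with PTGS2 at 10.8, 467, 325 and 42.3 CPM. The level at 8 h was then 0.130 times that at 4 h (0.0613 to 0.247), below the 0.457 (0.434 to 0.480) of cells chosen in the same way for CD14 and CSF1R, and the interval of the ratio of 8 h to no LPS (0.557 to 170) includes 1.

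The share of cells with a PTGS2 UMI was compared after each cell was thinned to 1000 UMIs, since depth differed between classes and libraries. In CD14/CSF1R-positive cells it was 13.6%, 74.9%, 41.5% and 23.0%, and unthinned it was 46.4%, 98.2%, 87.2% and 79.6%. In CSF3R-positive cells the thinned share was 2.11%, 16.4%, 14.3% and 13.3%. In lymphoid cells it was 0.0851%, 0.548%, 0.153% and 0.219%. The PTGS2 level in lymphoid cells was 1.19, 5.37, 1.02 and 2.23 CPM, which is 0.763%, 0.272%, 0.152% and 0.751% of the level in CD14/CSF1R-positive cells. The monocyte markers in the same lymphoid cells had a median of 0.734%, 0.508%, 0.977% and 0.726%, so the lymphoid PTGS2 values lie near or below this median and were not read as expression. The source of these UMIs was not tested.

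**Figure D1:**
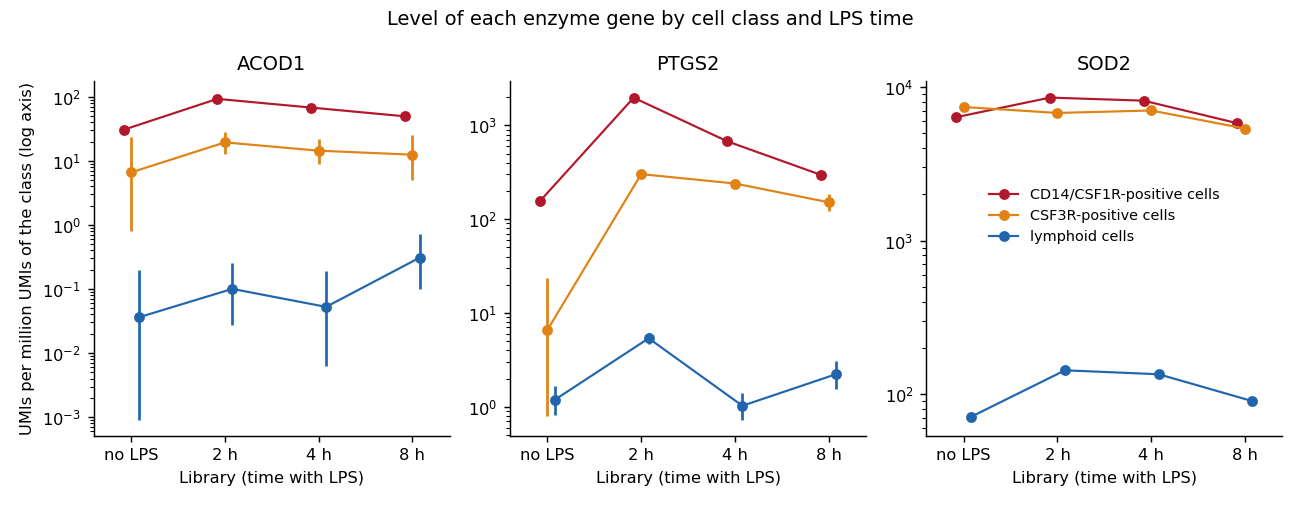
Level of ACOD1, PTGS2 and SOD2 (left to right) in UMIs per 1000000 UMIs of the class (CPM), on log axes, in the no LPS, 2 h, 4 h and 8 h libraries. Points are CD14/CSF1R-positive (red), CSF3R-positive (orange) and lymphoid cells (blue), and bars are 95% Poisson intervals for counting error. PTGS2 peaks at 1975 CPM at 2 h in CD14/CSF1R-positive cells, while SOD2 stays between 5385 and 8576 CPM in both myeloid classes.

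SOD2 was abundant in both myeloid classes before LPS. With all cells of each class counted, none of its ratios to no LPS was past 2-fold there. In CD14/CSF1R-positive cells its level was 6388, 8576, 8187 and 5832 CPM in the order no LPS, 2 h, 4 h, 8 h. The 2 h and 4 h libraries were above the no LPS library and the 8 h library was below it. The ratio to no LPS was 1.34 (1.33 to 1.35), 1.28 (1.27 to 1.295) and 0.913 (0.903 to 0.923), none of them past 2-fold. The direction at 8 h depended on which cells were counted: the ratio was 1.15 without cells that carried at least 2 UMIs of CD3 or B cell genes and 1.11 with the upper limit of 3000 genes. Relative to the median of all genes, SOD2 stood at 0.73, 0.28 and -0.35 on the log2 scale at 2 h, 4 h and 8 h.

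In CSF3R-positive cells SOD2 was at 7443, 6807, 7065 and 5385 CPM in the order no LPS, 2 h, 4 h, 8 h. The ratios to no LPS were 0.915 (0.874 to 0.958), 0.949 (0.907 to 0.994) and 0.723 (0.685 to 0.764). The 3 ratios turned to 1.04, 1.21 and 1.02 without the cells that carried at least 2 UMIs of CD3 or B cell genes. The intervals at 2 h (0.984 to 1.09) and 8 h (0.955 to 1.08) then include 1. When cells were chosen by at least 2 UMIs of CSF3R and fewer of CD14 and CSF1R, the ratios were 0.844, 0.908 and 0.379. The one at 8 h (0.346 to 0.414) was then past 2-fold lower. The 3 ratios kept their direction under 9, 10 and 10 of 13 alternatives. With TMM scaling the log2 ratio at 2 h was 0.17 in place of -0.13, so no direction is given for SOD2 in this class. Summed over all cells of a library, SOD2 was at 2360.4, 1871, 1490.2 and 1810.05 CPM, which is lower in each LPS library although it was higher in CD14/CSF1R-positive cells at 2 h and 4 h. The share of CD14/CSF1R-positive cells was lower in each LPS library too.

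Most UMIs of all 3 genes came from the CD14/CSF1R-positive cells. These cells held 88.6%, 91.0%, 78.8% and 84.7% of the ACOD1 UMIs in the order no LPS, 2 h, 4 h and 8 h. They held 88.1%, 91.1%, 79.9% and 82.4% of the PTGS2 UMIs and 85.2%, 78.8%, 62.5% and 74.3% of the SOD2 UMIs. For SOD2 the CSF3R-positive cells held 1.65%, 8.23%, 12.2% and 5.41%, and the lymphoid cells 1.44%, 4.76%, 6.08% and 2.59%. Clusters left without a name held between 6.09% and 17.8% of the UMIs of each gene.

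The 3 genes differed in how many of the CD14/CSF1R-positive cells carried them and in their number of UMIs per cell. Cells with at least 10000 UMIs (773, 445, 246 and 194 cells) were thinned to that number. PTGS2 had a median of 0, 17, 4 and 1 UMIs per cell in the order no LPS, 2 h, 4 h, 8 h, and 48.4%, 97.8%, 84.6% and 64.4% of the cells had any. The 10% of cells with the most PTGS2 held 56.4%, 28.8%, 42.9% and 48.2% of its UMIs. PTGS2 was thus found in nearly all these cells at 2 h and in fewer of them in the other libraries. Such shares also follow the level of a gene. The mean UMIs per thinned cell ran from 0.260 to 1.01 for ACOD1, 1.68 to 20.8 for PTGS2 and 63.8 to 89.4 for SOD2. Whether the genes differ in evenness at a like level was not tested.

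ACOD1 had at least 1 UMI in 18.6%, 53.9%, 42.7% and 32.5% of the thinned cells. Its median was 1 UMI at 2 h and 0 in the other libraries. SOD2 was found in every thinned cell of every library, with medians of 59, 89, 82 and 59 UMIs. At 2 h the cells between the 10th and 90th percentile had 42 to 133 SOD2 UMIs and 4 to 42 PTGS2 UMIs. ACOD1 was found in 21.7% of the cells with a PTGS2 UMI and in 15.8% of those without in the no LPS library (intervals 17.6% to 26.2% and 12.4% to 19.7%). In the LPS libraries these shares were 53.8% and 60.0%, 43.3% and 39.5%, and 33.6% and 30.4%, and each pair had overlapping intervals.

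**Figure D2:**
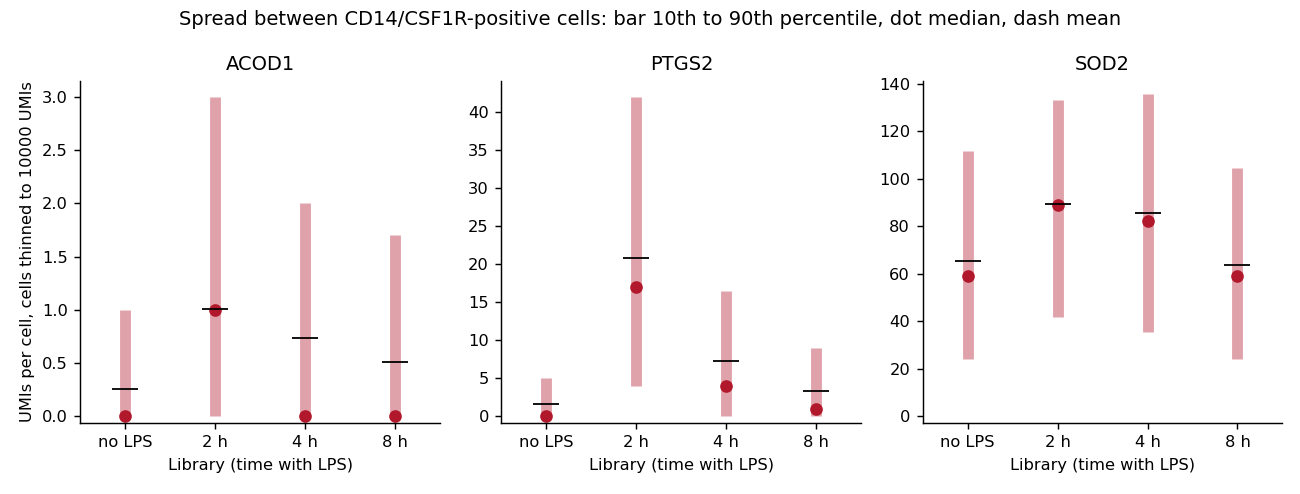
UMIs per cell of ACOD1, PTGS2 and SOD2 (left to right) in CD14/CSF1R-positive cells thinned to 10000 UMIs, for the no LPS, 2 h, 4 h and 8 h libraries. Bars run from the 10th to the 90th percentile over cells, dots are medians and dashes are means. The median of PTGS2 goes from 0 without LPS to 17 at 2 h and 1 at 8 h, while that of SOD2 lies between 59 and 89 throughout.

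In the lymphoid cells, SOD2 stood at 1.11%, 1.66%, 1.64% and 1.54% of the level in CD14/CSF1R-positive cells, above the marker medians given for PTGS2. Single markers can lie higher than their median. SIRPA was at 4.34 and 4.81 CPM in lymphoid cells at 2 h and 4 h, against 244 and 229 CPM in CD14/CSF1R-positive cells. That is a larger share than that of SOD2, while without LPS and at 8 h it was smaller. The source of the SOD2 UMIs in lymphoid cells was not tested. In lymphoid cells as a whole its level was 70.9, 142, 134 and 89.6 CPM in the order no LPS, 2 h, 4 h and 8 h. Its ratios to no LPS were 2.01 (1.91 to 2.11), 1.89 (1.80 to 1.99) and 1.26 (1.18 to 1.35). On the (CPM + 1) scale the value at 2 h fell just short of 2-fold, and 0.878%, 1.23% and 0.422% of the genes tested in lymphoid cells were at least 2-fold higher at 2 h, 4 h and 8 h. The lymphoid groups differed widely in this.

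Among the named lymphoid groups, the WC1-positive cells had the largest SOD2 ratios. WC1 is the scavenger receptor family that marks many γδ T cells of cattle. The cluster also had BLK, a kinase of the B cell list, among its leading genes, and its T cell markers summed to between 2570.1 and 2832 CPM. SOD2 in these cells was at 88.2, 555, 554 and 246 CPM in the order no LPS, 2 h, 4 h, 8 h, from 274, 2440, 2326 and 421 UMIs in 763, 1002, 789 and 290 cells. The 2 h and 4 h libraries did not differ beyond counting error, the 8 h library lay below them, and all stood above no LPS.

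The ratios of SOD2 to no LPS in WC1-positive cells were 6.30 (5.55 to 7.16), 6.29 (5.54 to 7.15) and 2.79 (2.39 to 3.26). In these cells 1.90%, 3.12% and 1.77% of the genes tested were at least 2-fold higher, and SOD2 ranked 10th of 8596, 12th of 8545 and 30th of 8044. The share of WC1-positive cells with a SOD2 UMI, thinned to 1000 UMIs, was 8.56%, 33.7%, 33.1% and 18.6%, and unthinned 24.5%, 63.7%, 68.6% and 52.1%. As a share of the level in CD14/CSF1R-positive cells, SOD2 in WC1-positive cells was 1.38%, 6.48%, 6.77% and 4.22%. The median of the monocyte markers in the same cells, measured the same way, was 1.00%, 0.613%, 0.414% and 0.401%, and their summed level was 151, 119, 123 and 117 CPM, so the SOD2 share lay above the marker median in every library.

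NK-like cells had a smaller SOD2 response, at 58.3, 165, 178 and 88.9 CPM. Their ratios to no LPS were 2.83, 3.06 and 1.52, and 1.99%, 2.84% and 3.34% of the genes tested in NK-like cells were at least 2-fold higher at 2 h, 4 h and 8 h. B-like cells stood at 76.3, 76.6, 67.9 and 70.2 CPM, and cytotoxic T-like cells at 56.2, 54.8, 64.5 and 57.6 CPM, with overlapping intervals between no LPS and every LPS library in both. CD4 and CD8 T-like cells stood at 65.4, 97.8, 86.7 and 70.7 CPM. Within them, the cluster led by TNFRSF4, CTLA4 and IL2RA, which are genes of activated and regulatory T cells, had 86.7, 281, 225 and 107 CPM over 84, 475, 409 and 88 cells. That cluster was chosen for mention after its values were seen, and its part in the values of the group was not tested.

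**Figure D3:**
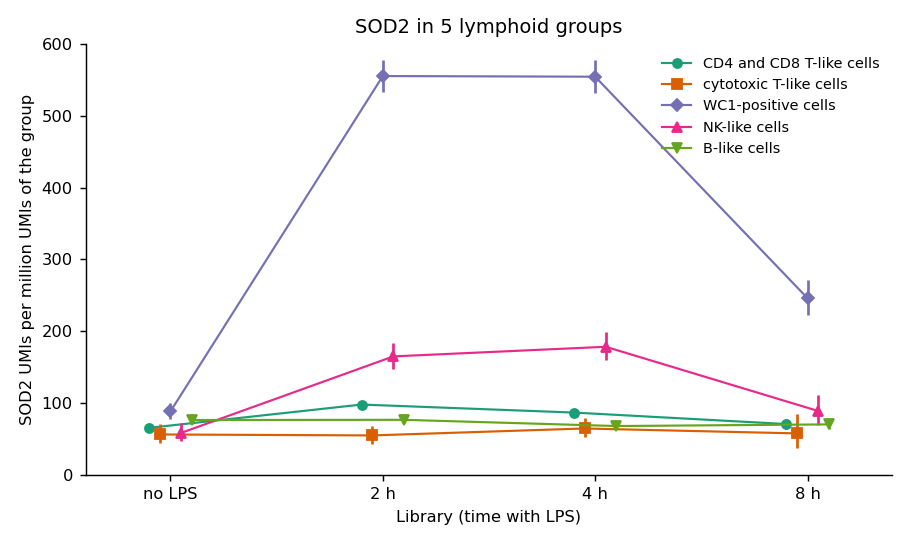
SOD2 level in CPM of the group in the no LPS, 2 h, 4 h and 8 h libraries, for 5 lymphoid groups. Bars are 95% Poisson intervals for counting error. WC1-positive cells go from 88.2 CPM to 555 CPM at 2 h, NK-like cells reach 178 CPM at 4 h, and B-like and cytotoxic T-like cells stay between 54.8 and 76.6 CPM.

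Dendritic-like cells, a cluster with FLT3, held 88, 55, 45 and 25 cells. SOD2 there was at 684, 1081, 1509 and 375 CPM, highest at 4 h. PTGS2 had 2, 8, 70 and 4 UMIs, or 1.59, 9.03, 85.9 and 7.85 CPM, and the 70 UMIs at 4 h came from 20.0% of the 45 cells. ACOD1 had 6, 0, 4 and 0 UMIs in these cells, where 3 counts would be 3.39 CPM at 2 h and 5.89 CPM at 8 h.

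Other genes of the same pathways were followed in the CD14/CSF1R-positive cells by lists, with the members left out of them. These and the further lists below were chosen with earlier results of these data known, so their counts only describe the cells. Of 25 prostanoid genes, 13 had enough UMIs (20 over both libraries) at 2 h, and 4 of these were at least 2-fold higher and 1 at least 2-fold lower, against 2.70% and 7.08% of all genes tested. The higher genes include PLA2G4A, the phospholipase that frees arachidonic acid, at 8.87 CPM without LPS and 19.5 CPM at 2 h. They also include PTGES, the inducible prostaglandin E synthase, which had 0.329 CPM and 3.104 CPM in the same libraries. The prostaglandin receptors PTGER2 (2.41 to 13.2 CPM) and PTGIR (5.91 to 19.3 CPM) were higher too. ALOX5AP, which helps the lipoxygenase that makes leukotrienes, was lower at 2.37 CPM against 8.38 CPM. PTGS1, the constitutive cyclooxygenase, had 0 UMIs without LPS and 1 at 2 h. At 4 h and again at 8 h, 1 gene of 12 was higher and 1 lower. Over all genes tested 4.36% were higher and 3.86% lower at 4 h, and 5.42% and 1.89% at 8 h.

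The TCA cycle list, which holds the enzymes around the substrate of ACOD1 and the target of itaconate, stayed near the other genes. At 2 h, none of 27 genes was at least 2-fold higher and 1 was lower, against 2.70% and 7.08% of all genes tested. The median log2 ratio was -0.34 against -0.31 over all genes. The lower gene was PDK4, a kinase that blocks pyruvate dehydrogenase, at 2.37 CPM against 11.7 CPM. The succinate dehydrogenase subunit SDHB stood at 168, 112, 119.9 and 159 CPM in the order no LPS, 2 h, 4 h and 8 h.

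Among 25 antioxidant genes with enough UMIs at 2 h, MT2A was higher and HMOX1, GLRX and SRXN1 were lower by at least 2-fold, with a list median of -0.42. Over all genes tested 2.70% were higher and 7.08% lower, so these counts lie near the background. MT2A, a metal-binding protein, was at 3339, 10916, 6618 and 6059 CPM, and is uncertain because its family holds close copies that could share reads. HMOX1, the haem oxygenase, was at 210.1, 35.0, 114 and 109 CPM, so it was lowest in the library where the effector genes were highest. SOD1, the cytosolic superoxide dismutase, was at 135, 118, 174 and 161 CPM, and SOD3 had no UMI in these cells in any library. None of the 25 antioxidant genes was past 2-fold at 8 h, against 5.42% of all genes tested higher and 1.89% lower.

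Other enzymes that LPS is known to act on were divided. At 2 h, 3 of 15 with enough UMIs were at least 2-fold higher and 1 lower, against 2.70% and 7.08% of all genes tested. At 4 h and again at 8 h 3 of 15 were higher and 2 lower, against 4.36% and 3.86% of all genes at 4 h and 5.42% and 1.89% at 8 h. NOS2, the inducible nitric oxide synthase, was at 17.2, 179, 139 and 85.6 CPM, a ratio of 10.4 (9.23 to 11.8) at 2 h. KMO, an enzyme of tryptophan breakdown, was at 4.93 CPM without LPS, with ratios to it of 4.26, 4.56 and 4.07 at the 3 times, so its order in time was not that of PTGS2. IDO1, at the head of the same pathway, was at 30.9, 42.3, 89.4 and 82.1 CPM and was higher at 4 h than at 2 h. NAMPT was at 33.5, 72.5, 55.2 and 33.6 CPM. MMP9, a gelatinase, was at 85.6, 4.11, 9.36 and 22.9 CPM, lowest at 2 h.

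Of the genes of the NF-kB feedback loop, 8 of 15 were at least 2-fold higher at 2 h and none lower, against 2.70% and 7.08% of all genes tested, with a median log2 ratio of 1.303. At 4 h 5 of 15 were higher (median 0.73) against 4.36% of all genes. At 8 h none of 15 was past 2-fold (median 0.22), against 5.42% of all genes higher and 1.89% lower. BIRC3, an inhibitor of cell death, was at 168, 862, 421 and 292 CPM. TNFAIP3, the deubiquitinase that ends NF-kB signalling, was at 249, 1093, 631 and 453 CPM. The same list in WC1-positive cells had 10 of 15 genes higher at 2 h and 6 of 15 at 4 h, against 1.90% and 3.12% of all genes tested there, with medians of 1.18 and 0.89.

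**Figure D4:**
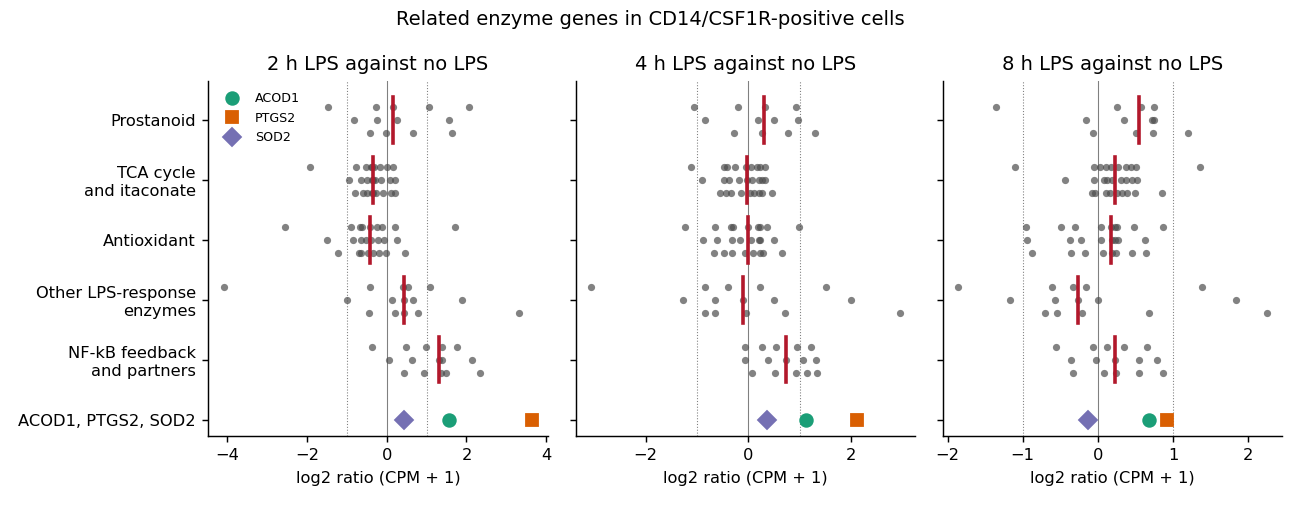
Log2 ratios of (CPM + 1) to no LPS in CD14/CSF1R-positive cells at 2 h, 4 h and 8 h (left to right). Grey points are genes of 5 lists with at least 20 UMIs over both libraries, red lines are list medians, dotted lines mark 2-fold, and coloured symbols are ACOD1, PTGS2 and SOD2. PTGS2 goes from 3.66 at 2 h to 0.92 at 8 h, and the median of the NF-kB list from 1.303 to 0.22.

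The genes closest in pattern were sought among 9649 genes by Pearson's r of log2(CPM + 1) over 12 sums, the 3 classes in 4 libraries. ACOD1 was most like SPTSSA (0.994), ARG2 (0.992), SLC2A6 (0.985), CCL4 (0.984) and GGT5 (0.980). PTGS2 was most like the chemokine genes CCL20 (0.979), CCL4 (0.978) and CCL3 (0.974), then F3 (0.965), which encodes tissue factor, and PVR (0.963). SOD2 was most like TLR2 (0.995), SIRPA (0.994), TNIP1 (0.993) and MARCKSL1 (0.991). The 12 sums share 4 libraries and fall apart by class, so most of the likeness is between lymphoid and myeloid cells. SIRPA, for example, was lower at 2 h (244 CPM) than without LPS (330.5 CPM) in the CD14/CSF1R-positive cells, where SOD2 was higher. CCL20 followed PTGS2 in time as well, at 143, 3761, 1029 and 243 CPM in these cells.

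scATAC-seq cuts open chromatin with a transposase, and the counts per gene tell how often fragments assigned to it were cut. The no LPS library was shallow, with 975012 counts over 3121 barcodes, against 30250143, 26837579 and 11957904 at 2 h, 4 h and 8 h, and 228 of its barcode sequences also occurred in the 2 h library. SOD2 had 210, 6453, 5749 and 2649 counts. Per 1000000 counts of a library (CPM) this was 215 (interval 187 to 247), 213 (208 to 219), 214 (209 to 220) and 222 (213 to 230). The 4 libraries did not differ beyond counting error, and without the no LPS barcodes shared with other libraries the first value was 208. SOD2 thus stood at a like accessibility count in every library, while its RNA level over all cells was between 1490.2 and 2360.4 CPM. The accessibility and RNA totals rest on unlike cells. At 2 h, 26464583 of the scATAC-seq counts lay in barcodes with mainly lymphoid marker counts and 671927 in those with mainly myeloid ones. Of the SOD2 UMIs, 62.5% to 85.2% came from CD14/CSF1R-positive cells.

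ACOD1 was listed in 3 of the scATAC-seq libraries, with 12.1 (10.9 to 13.4), 10.1 (8.93 to 11.4) and 6.36 (5.01 to 7.96) CPM in the order 2 h, 4 h, 8 h. The value at 8 h lies below the other intervals. PTGS2 was listed at 2 h with 46 counts (1.52 CPM, 1.11 to 2.03) and at 4 h with 13 counts (0.484 CPM, 0.258 to 0.828), whose intervals do not overlap. The rows of ACOD1 and PTGS2 without LPS, and of PTGS2 at 8 h, were not analysed here. Barcodes with mainly myeloid marker counts numbered 111, 67 and 46 at 2 h, 4 h and 8 h, and 1 without LPS.

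In these myeloid-lineage barcodes SOD2 was at 321 (280 to 367), 385 (332 to 444) and 213 (157 to 284) CPM at 2 h, 4 h and 8 h. In lymphoid-lineage barcodes it was at 208, 208 and 222. The intervals of the lineages do not overlap at 2 h and 4 h. ACOD1 in the myeloid-lineage barcodes had 23, 12 and 2 counts, or 34.2, 24.6 and 9.08 CPM, and in lymphoid-lineage barcodes 11.2, 9.59 and 4.96. PTGS2 had 10 counts in the myeloid-lineage barcodes at 2 h, or 14.9 CPM (7.14 to 27.4), against 1.06 (0.703 to 1.53) in the lymphoid-lineage barcodes. Most scATAC-seq counts above 0 in a library were even numbers (88.7% to 93.8%), so counts are not independent cuts and these intervals are too narrow. Over all barcodes, 92.2% to 98.4% of the SOD2 counts above 0 were even. For ACOD1 it was 80.7%, 72.2% and 58.1% at 2 h, 4 h and 8 h, and for PTGS2 46.7% and 18.2% at 2 h and 4 h. How far the intervals of ACOD1 and PTGS2 are too narrow was not tested.

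**Figure D5:**
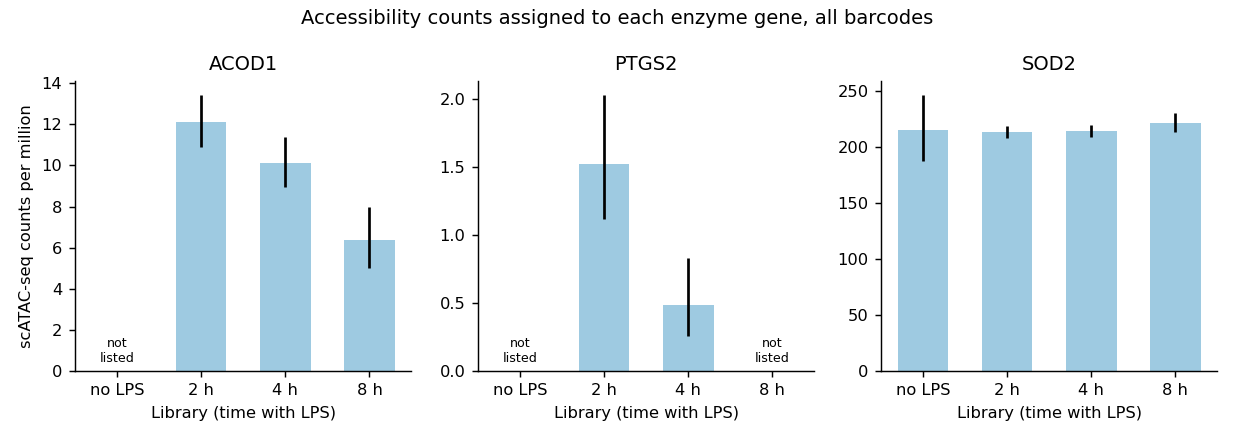
scATAC-seq counts in CPM of a library, assigned to ACOD1, PTGS2 and SOD2 (left to right), over all barcodes, in the no LPS, 2 h, 4 h and 8 h libraries. Bars start at 0, lines are 95% Poisson intervals for counting error, and libraries in which a gene had no row are marked as not listed. SOD2 lies between 213 and 222 in all libraries, and ACOD1 is lowest at 8 h with 6.36.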

How the data were processed

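The authors deposited raw UMI counts for every gene and cell barcode, which per the labels came from Cell Ranger and the genome build ARS-UCD1.2, and, for scATAC-seq, deposited counts per gene and barcode whose counting rule is not given in the sources used here. No column of other samples was found. Barcodes with at least 200 genes, 200 UMIs and under 20% mitochondrial UMIs were kept, with no upper limit on genes. Doublets were treated only by an alternative that leaves out myeloid cells with at least 2 UMIs of CD3, CD79 or MS4A1 genes, and no doublet caller was run. Counts were scaled to 10000 UMIs, and 2000 variable genes without the LPS lists and members gave 30 components, 15 neighbours and Leiden clusters at resolution 1 (scanpy 1.11.5). A cluster was named from at least 3 markers of a class, detected in at least 10% of its cells and 1.5 times higher than elsewhere. The UMIs of each class in a library were summed and compared as log2 ratios with a pseudocount of 1 CPM, for genes with at least 20 UMIs over both libraries. Levels were not compared between genes, apart from the UMIs per thinned cell given for the 3 members. With 1 library per treatment no test was made. Poisson intervals are exact, and those of shares are Clopper-Pearson intervals. Total UMIs ran from 30902952 to 63770426 per scRNA-seq library, and intervals were widest in the small CSF3R-positive class. The ratio step was tested on simulated data with changed genes. Scaling factors of edgeR 4.0.16 (TMM) and DESeq2 1.42.0 were alternatives only, as were other cell limits, clusterings, gates, pseudocounts and minimum counts. Named genes are the members, the 5 most alike to each, and up to 3 genes of each list with the largest rises and falls past 2-fold, and others are named as pathway members with their values. The members and lists were chosen with earlier results of these data known. Some genes that these rules name are not reported here. Sequences and coordinates were not used here.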

Additional observations from a re-analysis of the deposited data

Results flagged for a closer look

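With 1 library per group no sample could be compared with others of its group, and none of the differences in direction below was tested. With all cells of each class counted, the log2 ratio of SOD2 to no LPS differed in sign between classes. As said above, no direction is given for SOD2 in CSF3R-positive cells. At 2 h its log2 ratio was 0.42 in CD14/CSF1R-positive cells and 1.00 in lymphoid cells but -0.13 in CSF3R-positive cells. At 4 h the values were 0.36, 0.91 and -0.075 in the same order. At 8 h it was 0.33 in lymphoid cells, -0.13 in CD14/CSF1R-positive cells and -0.47 in CSF3R-positive cells. The negative values turned positive without cells that carried at least 2 UMIs of CD3 or B cell genes, as given above. In CSF3R-positive cells the intervals of these ratios at 2 h (0.984 to 1.09) and 8 h (0.955 to 1.08) include 1.

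The clusters left without a name lie outside the comparisons and also held members above their no LPS level. Listed are only genes whose counting interval in an LPS library lay above that without LPS, with at least 20 UMIs. Each is given at its highest such library, and falls were not searched for. In a cluster of few UMIs and mixed markers (cluster 14, with 182, 57, 12 and 849 cells), PTGS2 was at 604 CPM at 2 h with no UMI in the no LPS library, and SOD2 was at 2198 CPM at 4 h against 423 CPM. In a cluster of very high UMIs with monocyte, plasma cell and cycling markers (cluster 17), ACOD1 was at 30.7 CPM at 4 h, PTGS2 at 687 CPM at 2 h and SOD2 at 4733 CPM at 4 h, against 13.5, 76.7 and 3259 CPM without LPS. SOD2 was also higher in a cycling cluster (cluster 5, 197 CPM at 8 h against 70.8), in a cluster of mixed γδ T and B cell markers (cluster 12, 302 CPM at 4 h against 66.3), in a cluster of few UMIs (cluster 20, 408 CPM at 4 h against 171) and in a cluster with few markers of any class (cluster 21, 1142 CPM at 4 h against 176).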

How the results depend on the processing

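Each value rests on 1 library, and intervals cover counting error only. No paired analysis was possible because each treatment had a single library per assay. The ratios of ACOD1 and PTGS2 to no LPS in CD14/CSF1R-positive cells kept their direction at every LPS time under all 13 alternatives, as did SOD2 at 2 h and 4 h, and SOD2 at 8 h kept it under 11. The following log2 ratios in these cells, given for 2 h, 4 h or 8 h against no LPS, moved beyond the counting interval, and the cause was not tested. Without cells that carried at least 2 UMIs of CD3 or B cell genes, ACOD1 was 1.49 at 4 h and 1.07 at 8 h, PTGS2 2.27 and 1.37, and SOD2 0.45, 0.55 and 0.20 over the 3 times. With an upper limit of 3000 genes, ACOD1 was 1.72 at 4 h and 1.36 at 8 h, PTGS2 3.60, 2.33 and 1.64, and SOD2 0.45, 0.47 and 0.15 over the 3 times. With TMM scaling, ACOD1 was 1.90 at 2 h and 0.41 at 8 h, PTGS2 3.98, 1.99 and 0.65, and SOD2 0.75, 0.24 and -0.40. With DESeq2 size factors, ACOD1 was 1.91 at 2 h and 0.41 at 8 h, PTGS2 4.00, 2.01 and 0.65, and SOD2 0.77, 0.26 and -0.40. With cells weighted equally, ACOD1 was 0.98 at 8 h, PTGS2 3.56 at 2 h and 0.77 at 8 h, and SOD2 0.44 at 2 h and -0.040 at 8 h. With a pseudocount of 10 CPM, ACOD1 was 1.34 at 2 h and 0.94 at 4 h and PTGS2 3.58 at 2 h. With cells chosen by UMIs of CD14 and CSF1R, PTGS2 was 1.98 at 4 h and SOD2 0.46 at 2 h and 0.34 at 4 h. At Leiden resolution 0.5, SOD2 was 0.45, 0.32 and -0.11, at resolution 2 it was 0.34 at 4 h and -0.11 at 8 h, and clustered with the LPS lists 0.34 at 4 h and -0.10 at 8 h. With cluster 17 added, which was tried only after seeing the data, like the lymphoid groups, the thinning to 10000 UMIs and the barcodes left out of scATAC-seq, PTGS2 was 1.91 at 4 h and SOD2 0.44 at 2 h and 0.30 at 4 h. In WC1-positive cells SOD2 lay between 2.53 and 2.71 at 2 h under 12 alternatives. Of the 5 genes most like each member by Pearson's r, 5 stayed with a minimum of 500 UMIs, and by Spearman's rho 1 stayed for ACOD1, 3 for PTGS2 and 1 for SOD2. Depth limits ACOD1 and PTGS2 in CSF3R-positive cells without LPS, with 2 UMIs each, and scATAC-seq without LPS.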
